A study of Mus musculus with 6 samples.

Results

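The genes of the interferon response and of antigen presentation by MHC class I were examined in pigment-sorted B16-F10 mouse melanoma cells. The set was a list of 49 mouse gene symbols, chosen by name and not by level, though with earlier results of these data known. Of these, 47 had a row among the 18324 gene rows of the count table, namely 11 of 11 genes of antigen presentation and 36 of 38 interferon-induced genes. The table had no row of the symbols *Ifitm1* and *Ifi27*, so no value is given for them. Rows were matched by mouse symbol, because 9 class I rows, *H2-K1* and *H2-D1* among them, carried the single human symbol HLA-H in the table's other name column.

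Interferons bind surface receptors whose JAK kinases phosphorylate STAT proteins. STAT2 and IRF9 belong to the complex that binds the interferon-stimulated response element (ISRE), whereas the response to interferon gamma also acts through the gamma-activated site (GAS). Many of the induced genes code for sensors or inhibitors of viral RNA, and others load class I molecules. The proteasome cuts proteins, and the TAP transporter carries the peptides into the endoplasmic reticulum. Tapasin helps load them onto the heavy chain paired with its light chain, beta-2 microglobulin. B16 melanoma is known for little class I at its surface, which interferon gamma raises.

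B16-F10 cells, obtained from ATCC and grown in medium with serum and antibiotics, were sorted on the light scatter of melanin into high-pigmented cells (HPC) and low-pigmented cells (LPC). Each population gave 3 libraries of 3′-end mRNA reads, and the labels name no interferon or drug for either. Every library came from 1 cell line, and the labels do not say whether the libraries of a population were separate cultures. An HPC and an LPC library share each title suffix, whose meaning is not given, and these are called pairs 1, 2 and 3. Values below are normalised counts in CPM (counts per 1000000, on TMM-scaled library sizes), which need no division by gene length in 3′-end data.

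Gene counts per library ranged from 3819605 to 7311131, but pair 2 stood apart. A single row, RP23-81C12.3, took 53.9% of the HPC and 27.1% of the LPC counts of pair 2, against 3.54% to 5.03% in the other libraries. Of the 47 members, 15 had 0 counts in the HPC library of pair 2 and 9 in its LPC library, against 0 to 2 in each other library. Of all genes tested, 20.3% and 7.54% were at 0 there and at most 0.468% elsewhere. All 7 melanocyte markers on the list (*Pmel*, *Mlana*, *Dct*, *Tyrp1*, *Tyr*, *Sox10*, *Mitf*) had rows, with a summed level of 4443 to 20733 CPM. Of 11 leukocyte markers 6 had rows, with 22 to 65 counts (4.13 to 34.3 CPM) in all, and there was no row of the symbols *Ptprc* or *Cd3e*. Of 6 fibroblast markers 3 had rows, at 0.935 to 33.2 CPM in all. Both of these sums were highest in the HPC library of pair 2, and their part in the results was not tested.

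Among the members, the light and heavy chains of class I and a few antiviral genes were abundant, while several genes that load or control class I were near the lower limit of the counts. *B2m*, beta-2 microglobulin, had the highest mean over the 6 libraries, 280 CPM, and ranked 413 among all rows. *H2-D1*, a class I heavy chain, averaged 193 CPM at rank 672. *Rsad2*, the radical SAM enzyme viperin, averaged 171 CPM at rank 775. *Ifitm3*, a membrane protein that blocks virus entry, followed with 101 CPM at rank 1384. The median of the members' mean levels was 14.2 CPM for the 9 antigen presentation genes that passed the count filter and 11.1 CPM for the 34 interferon-induced genes, against 19.3 CPM for all 11324 genes tested. No member stayed at or under 3 counts in every library. In bulk RNA, fewer cells that express a gene and less RNA of it per cell cannot be told apart.

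**Figure D1:**
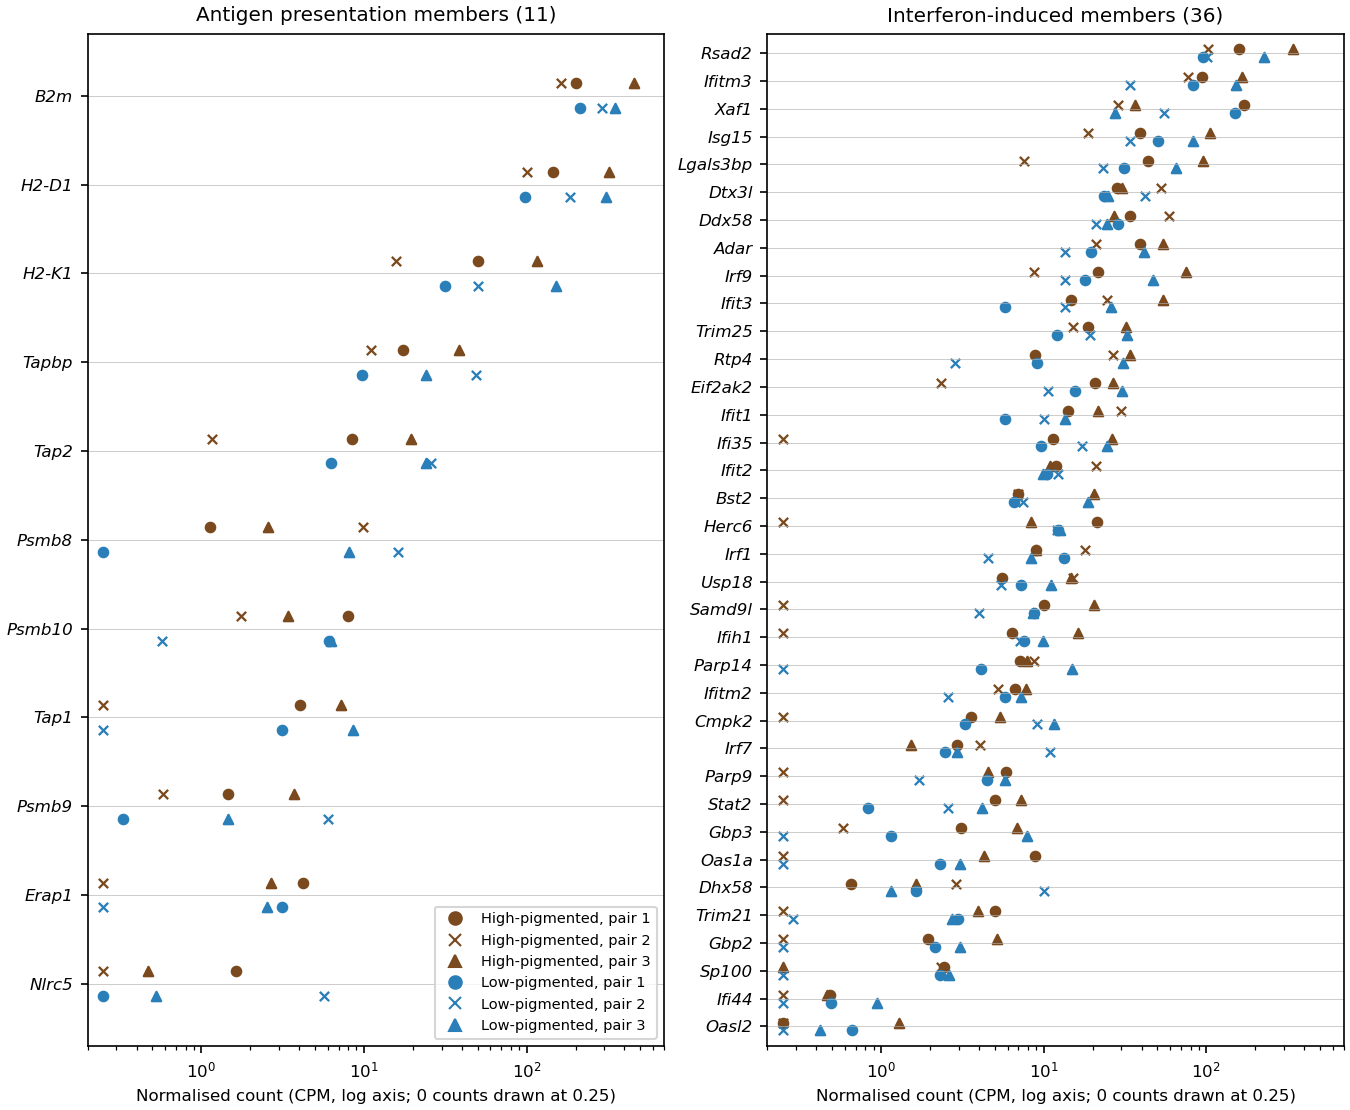
Normalised count (CPM, log axis) of the 47 members in each of the 6 libraries, ordered by mean level, with HPC libraries in brown, LPC in blue and the pairs by symbol; libraries with 0 counts are drawn at 0.25. In pairs 1 and 3 the brown and blue symbols mostly lie close together, and 15 and 9 members were at 0 in the pair 2 libraries.

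Of the 47 members 43 passed the count filter (a minimum count of 10), and *Psmb9*, *Nlrc5*, *Oasl2* and *Ifi44* did not. *Psmb9*, an inducible proteasome subunit, had 9, 1 and 32 counts in the HPC and 2, 21 and 14 in the LPC libraries of pairs 1, 2 and 3. *Nlrc5*, the transactivator of class I genes, had 10, 0 and 4 counts and 0, 20 and 5 counts in the same order, so that its pair 1 and pair 2 values point in opposite directions. *Oasl2*, an oligoadenylate synthetase-like protein, had 0, 0 and 11 counts and 4, 0 and 4 counts. *Ifi44*, an interferon-induced cytoplasmic protein, had 3, 0 and 4 counts and 3, 0 and 9 counts. The last 2 genes were thus at or near 0 in most libraries, where 3 counts correspond to 0.315 to 1.75 CPM. Outside the members, the genes of class II presentation were nearly absent: *H2-Ab1* had 14 counts in 1 library, *H2-Eb1* had 1 count in 1 library, and *Cd74*, the invariant chain, had 20 and 4 counts in 2 libraries. The table had no row of the symbols *Ciita* or *H2-Aa*, nor of the ligands *Ifna1*, *Ifna2*, *Ifna4*, *Ifnb1*, *Ifng*, *Ifnl2* and *Ifnl3*.

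The sorted populations were compared first over all 6 libraries, which asks whether pigmented cells carry more or less of this program. No member passed the test. In edgeR's quasi-likelihood test 0 of 43 members tested passed an adjusted p of 0.05, and 0 had an unadjusted p under 0.05; over all genes 0% of 11324 passed, with 38 under an unadjusted 0.05. DESeq2 and limma-voom also called 0 members and 0 genes, with 0 members and 134 and 25 genes under the unadjusted level. Libraries of a population varied widely (common biological coefficient of variation 71.6%), and member standard errors ran from 0.47 to 1.72 on the log2 scale. A miss of the threshold therefore does not show that the populations were alike. On simulated counts with known changes, this fit recovered 0% of the 2-, 4- and 8-fold ones. Its lack of calls thus cannot tell whether changes of that size were present. Over the 9 antigen presentation genes tested the median log2 fold change, HPC against LPC, was -0.05, with 2 above 0. In limma-voom the same median was 0.21, with 5 above 0, and in edgeR without pair 2, where 10 such genes were tested, it was 0.11 with the block and 0.067 without, so its direction turned with the method and with pair 2. For the 34 interferon-induced genes it was 0.31, with 24 above 0, and for all genes -0.04. Within pairs 1, 2 and 3 the medians were 0.41, -0.84 and -0.24 for antigen presentation, 0.24, -0.04 and 0.21 for interferon-induced genes, and 0.02, -0.20 and -0.00 for all genes. The order of the arms was not the same in every pair, antigen presentation being the higher in pair 1, and the difference between the arms was not tested.

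Counted by pair, 9 of the 43 members tested were higher in the HPC library of every pair, where 12.9% of all genes were, and 0 were lower in every pair, where 17.2% were. All of the 9 were interferon-induced: *Ifit1*, *Ifit2*, *Ifit3*, *Rsad2*, *Ifitm2*, *Ifitm3*, *Ddx58*, *Adar* and *Dtx3l*. Of the 11 antiviral effectors 6 were among them, and of the 9 antigen presentation genes 0. In 1 of 43 members, *Ifit1*, the HPC and LPC values did not overlap, against 5.74% of all genes in either direction and 2.43% with the HPC values above.

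**Figure D2:**
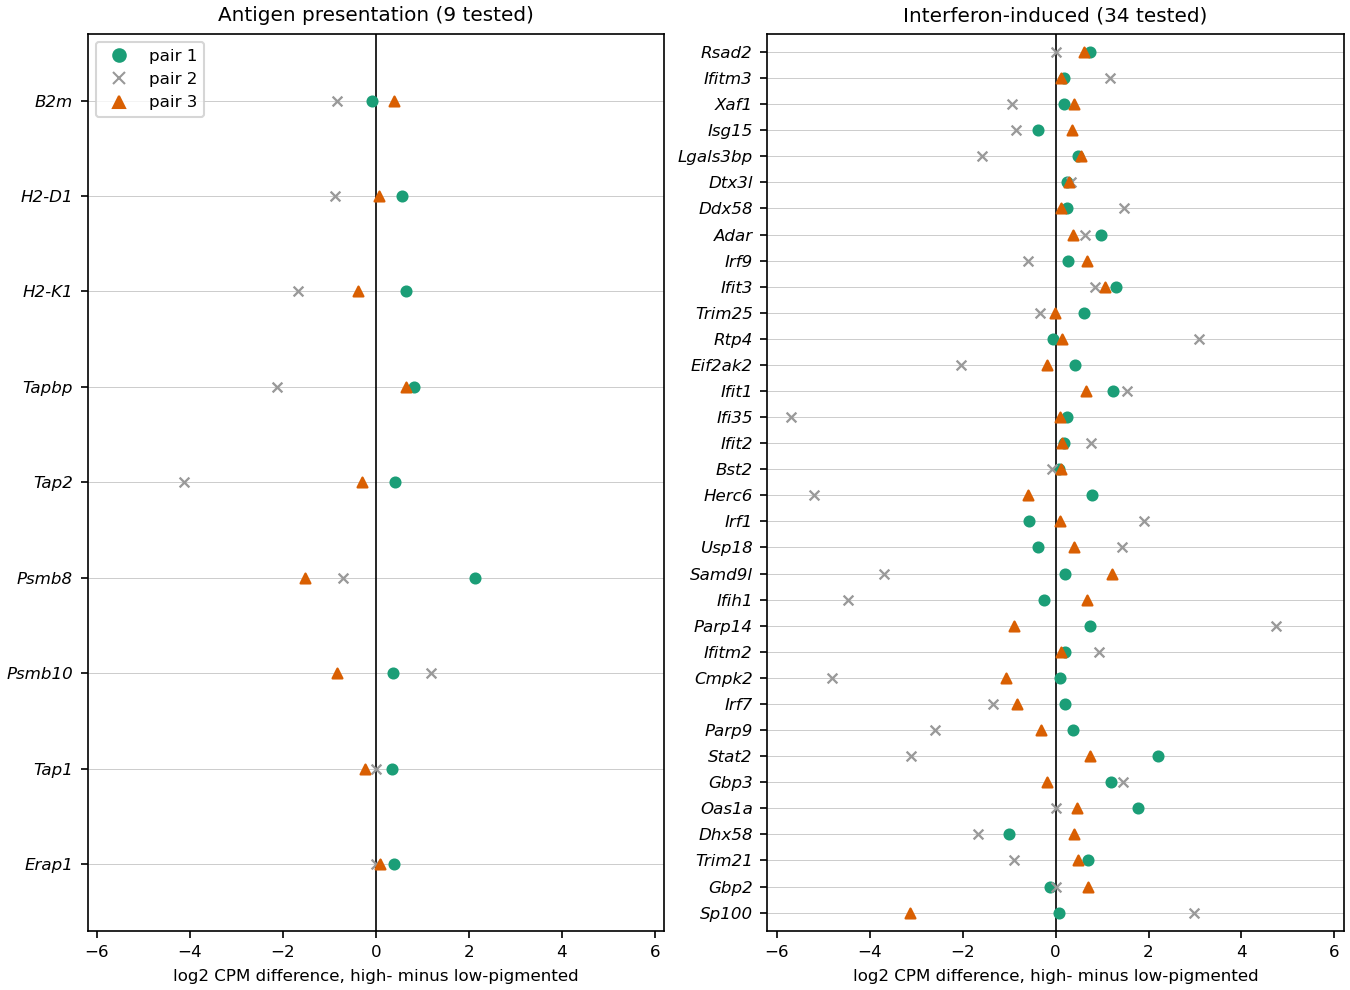
Difference in log2 CPM (prior count 2) between the HPC and the LPC library of each pair, for the 9 antigen presentation and 34 interferon-induced members tested; points right of 0 were higher in HPC. Grey crosses of pair 2 spread over several log2 units, whereas most points of pairs 1 and 3 lie within 1 unit of 0.

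The class I chains were not ordered by pigment. *B2m* stood at 202, 164 and 460 CPM in the HPC and 214, 292 and 349 CPM in the LPC libraries of pairs 1, 2 and 3. *H2-D1* stood at 146, 101 and 323 CPM and at 98.0, 185 and 307 CPM. *H2-K1*, the other heavy chain, stood at 49.9, 15.7 and 116 CPM and at 31.7, 50.6 and 152 CPM; it is given in full because of its role, a choice made after its values were seen. In each of the 3 genes the groups overlapped and the highest values were those of pair 3. The log2 fold changes, HPC against LPC, were -0.05 ± 0.48 for *B2m*, -0.05 ± 0.58 for *H2-D1* and -0.36 ± 0.80 for *H2-K1* (± SE, n = 3 against 3; edgeR, adjusted p of 1.00 each). Both heavy chains share stretches of at least 100 bases at 95% identity or more with transcripts of 8 other genes each, so reads could be split among class I genes and their counts are uncertain.

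The genes that move peptides to class I were on average lower than the chains themselves. *Tapbp*, tapasin, had 17.4, 11.1 and 38.3 CPM in the HPC and 9.75, 49.2 and 24.2 CPM in the LPC libraries. *Tap2*, one chain of the TAP transporter, had 8.46, 1.16 and 19.4 CPM and 6.28, 26 and 23.9 CPM. In pair 2 both were lower in the HPC library, *Tap2* with 2 counts against 91, and in pairs 1 and 3 the direction of *Tap2* differed. Their log2 fold changes were -0.30 ± 0.73 and -0.92 ± 0.98 (edgeR, adjusted p of 1.00 each). The value of *Tap2* rested on pair 2, without which it was -0.0016 with the block and -0.13 without. Exons of *Tapbp* overlap those of *Zbtb22* on the same strand, and its transcripts share stretches with those of 13 other genes, so its count is uncertain. *Tap1*, the other chain, averaged 3.84 CPM and had 0 counts in both libraries of pair 2. *Erap1*, the aminopeptidase that trims peptides, averaged 2.10 CPM and was likewise at 0 there. On chromosome 17 (GRCm38.p6) the genes *Psmb9*, *Tap1*, *Psmb8* and *Tap2* lie side by side from 34182030 to 34216321, with only 225 bases between *Psmb9* and *Tap1*. Annotated exons of *Tap1* and *Psmb9* overlap on opposite strands, and the use of strand in counting is not given in the sources used here, so reads from the overlap could have been counted for either.

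The inducible proteasome subunits, which replace constitutive ones after interferon, made up a minor share of the counts of each catalytic pair. *Psmb8* had 7, 17 and 22 counts in the HPC and 0, 57 and 77 counts in the LPC libraries of pairs 1, 2 and 3. As a share of *Psmb8* plus *Psmb5*, its constitutive counterpart, this was 0.760%, 15.2% and 1.81% in HPC. In LPC it was 0 of 1022 counts in pair 1, which allows up to 0.294%, then 17.0% and 5.95%. Both libraries of pair 2 thus had the highest *Psmb8* shares, with Wilson 95% intervals of 9.70% to 22.97% and 13.4% to 21.4%, which cover counting error only. The share of *Psmb9* against *Psmb6* ran from 0.219% to 3.79%, and that of *Psmb10* against *Psmb7* from 1.87% to 10.6%. *Psmb10* had 7.97, 1.75 and 3.39 CPM in HPC and 6.11, 0.572 and 6.30 CPM in LPC, so its groups overlapped too. The log2 fold changes were -0.89 ± 1.60 for *Psmb8* and 0.02 ± 1.16 for *Psmb10* (edgeR, adjusted p of 1.00 each).

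**Figure D3:**
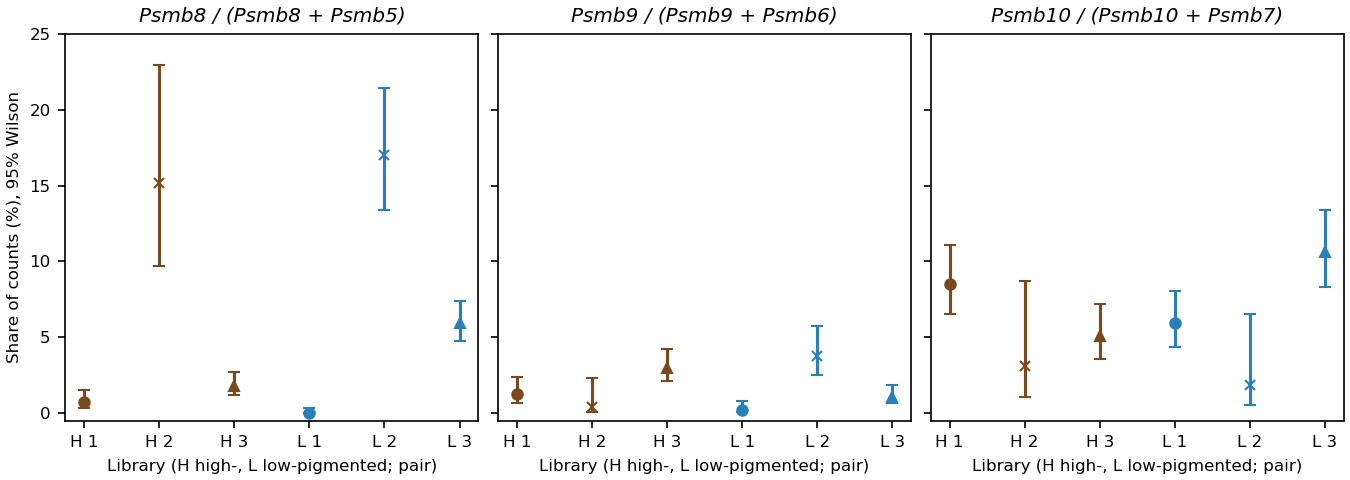
Share of counts (%) of each inducible proteasome subunit in the sum with its constitutive counterpart, per library, with Wilson 95% intervals; H and L are HPC and LPC libraries of pairs 1 to 3. The *Psmb8* share stands at 15.2% and 17.0% in pair 2 and at most 5.95% elsewhere, and the other shares are at most 10.6%.

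Among the transcription factors, *Irf9*, the DNA-binding subunit of the type I interferon complex, was the most abundant, with 21.5, 8.73 and 74.8 CPM in the HPC and 17.8, 13.4 and 46.8 CPM in the LPC libraries. *Irf1*, a factor that also drives class I genes, had 8.95, 18 and 9.00 CPM and 13.4, 4.57 and 8.40 CPM. Neither separated the populations, with log2 fold changes of 0.43 ± 0.83 and 0.43 ± 0.76 (edgeR, adjusted p of 1.00 each). That of *Irf1* ran from 0.026 to 0.86 with 1 library left out, lowest without the HPC library of pair 2. *Stat2* averaged 3.32 CPM and *Irf7*, a factor of interferon gene induction, 4.13 CPM. Annotated exons of *Irf9* overlap those of *Rnf31* on the same strand, so its count is uncertain.

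The sensors of double-stranded RNA were led by *Ddx58*, which codes for RIG-I, and *Adar*, the adenosine deaminase that edits double-stranded RNA. *Ddx58* had 33.8, 58.8 and 26.9 CPM in the HPC and 28.6, 20.9 and 24.7 CPM in the LPC libraries. *Adar* had 38.9, 21.0 and 54.1 CPM and 19.7, 13.4 and 41.4 CPM. Each was higher in the HPC library of every pair, though values of different pairs overlapped. The log2 fold changes of 0.68 ± 0.48 and 0.62 ± 0.59 did not pass (edgeR, adjusted p of 1.00 each). Leaving out 1 library moved *Ddx58* between 0.30, without the HPC library of pair 2, and 0.89. *Adar* moved between 0.26, without the HPC library of pair 3, and 1.21, without the LPC library of pair 3. With the pair as a block and all libraries kept, the values were 0.60 ± 0.41 for *Ddx58* and 0.67 ± 0.31 for *Adar* (edgeR, adjusted p of 0.927 each). *Ddx58* transcripts share long repeats with those of 95 other genes, which makes its count uncertain. The remaining members of the class with a fit, *Eif2ak2* (the kinase PKR), *Ifih1* (the sensor MDA5), *Oas1a* and *Dhx58*, averaged 3.00 to 17.7 CPM.

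Of the 11 antiviral effectors tested, 10 had a log2 fold change above 0, with a median of 0.41. *Ifit1*, which binds foreign RNA caps, stood at 14.2, 29.7 and 21.6 CPM in the HPC and 5.78, 10.0 and 13.5 CPM in the LPC libraries. Every HPC value lay above every LPC one, the highest LPC value being 13.5 and the lowest HPC value 14.2 CPM. *Ifit3*, of the same protein family, stood at 14.6, 24.4 and 54.5 CPM and at 5.78, 13.4 and 25.8 CPM, with overlap between the groups. *Rsad2* stood at 158, 102 and 343 CPM and at 95, 101 and 226 CPM, nearly equal in pair 2. *Ifitm3* stood at 94.0, 77.4 and 166 CPM and at 83.0, 34 and 153 CPM. Over all 6 libraries the log2 fold changes were 1.15 ± 0.64 for *Ifit1*, 1.05 ± 0.73 for *Ifit3*, 0.52 ± 0.57 for *Rsad2* and 0.32 ± 0.58 for *Ifitm3* (edgeR, adjusted p of 1.00 each). The value of *Ifit3* fell to 0.36 without the HPC library of pair 3 and was 1.72 without the LPC library of pair 3. That of *Ifit1* stayed between 0.87 and 1.47 with 1 library left out. With the pair as a block and all libraries kept, the values were 1.17 ± 0.46 for *Ifit1* and 1.09 ± 0.35 for *Ifit3*. For *Rsad2* and *Ifitm3* they were 0.46 ± 0.22 and 0.48 ± 0.29 (edgeR, adjusted p of 0.927 each). *Ifit3* shares a stretch of 1700 bases at 95% identity or more with its copy *Ifit3b*, so reads could be split between the copies and its count is uncertain.

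The other 7 effectors averaged at most 12.7 CPM. *Bst2*, tetherin, which holds budding virus at the cell surface, stood at 7.0, 6.98 and 20.3 CPM in the HPC and 6.61, 7.43 and 18.7 CPM in the LPC libraries, with differences within 0.12 log2 units in each pair. *Ifit2* averaged 12.7 CPM, *Ifitm2* 5.89 CPM, and the interferon-induced GTPases *Gbp3* and *Gbp2* 3.27 and 2.05 CPM. *Samd9l*, which restricts poxviruses, averaged 8.65 CPM. The single effector with a value below 0 was *Cmpk2*, a mitochondrial nucleotide kinase, at -1.36 ± 1.25, with 3.58, 0 and 5.38 CPM in HPC and 3.31, 9.15 and 11.7 CPM in LPC. It lies 12664 bases from *Rsad2* on chromosome 12, and the high level of *Rsad2* was not shared by it: their means were 171 and 5.51 CPM.

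Promoter sequences were read for the genes whose levels are described here, because the interferon factors act through short elements near the start site. RefSeq windows of 250 bases before to 50 after the start (GRCm38.p6) were found for 40 of the 47 members. The ISRE pattern GAAANNGAAA, searched on both strands, was in 17 of 40 members (42.5%), against 3.99% of all genes with a window and 3.44% of all windows. It was in 15 of 31 interferon-induced and 2 of 9 antigen presentation members, and in 8 of the 11 antiviral effectors. The GAS pattern TTCNNNGAA, which reads the same on both strands, was in 9 of 40 members (22.5%), against 9.55% of genes and 8.30% of windows. A match describes letters and not a bound site. The stretches below, all on the gene's own strand from 5′ to 3′, show ISRE matches in capitals for the 2 members that passed the test without pair 2, for *Ifit1*, *Isg15*, *Bst2* and *Stat2*, and for the class I light chain, and the GAS match of *Irf1*. All lie outside annotated exons and upstream of the gene, except that of *Ifit3*, which lies within the gene's full extent, before a later start site.
Rsad2, chr12:26456539-26456596, minus strand: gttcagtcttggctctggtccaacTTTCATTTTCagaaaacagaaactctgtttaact
Ifit3, chr19:34583349-34583440, plus strand: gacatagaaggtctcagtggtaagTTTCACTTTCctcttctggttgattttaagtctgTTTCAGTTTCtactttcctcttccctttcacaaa
Ifit1, chr19:34640761-34640837, plus strand: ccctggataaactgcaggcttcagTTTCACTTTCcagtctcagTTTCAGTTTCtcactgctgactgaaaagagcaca
Isg15, chr4:156200851-156200920, minus strand: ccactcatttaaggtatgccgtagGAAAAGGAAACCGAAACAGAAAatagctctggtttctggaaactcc
Bst2, chr8:71537563-71537626, minus strand: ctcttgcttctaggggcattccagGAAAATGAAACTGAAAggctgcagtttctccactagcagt
Stat2, chr10:128270252-128270309, plus strand: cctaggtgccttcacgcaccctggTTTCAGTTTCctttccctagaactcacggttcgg
B2m, chr2:122147524-122147581, plus strand: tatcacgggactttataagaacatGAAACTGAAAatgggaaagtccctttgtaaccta
Irf1, chr11:53769900-53769956, plus strand: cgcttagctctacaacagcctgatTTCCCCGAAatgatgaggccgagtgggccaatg

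Several members carried more than one copy: *Ifit1* and *Ifit3* had 2 separate ISRE matches each, *Bst2* had 2 that overlap, and *Isg15* had 3 that overlap. Of the 37 members that had both a window and a fit over all libraries, 13 of 17 with an ISRE match and 10 of 20 without one had a log2 fold change above 0, with medians of 0.34 and -0.00. These counts describe the members and were not tested.

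**Figure D4:**
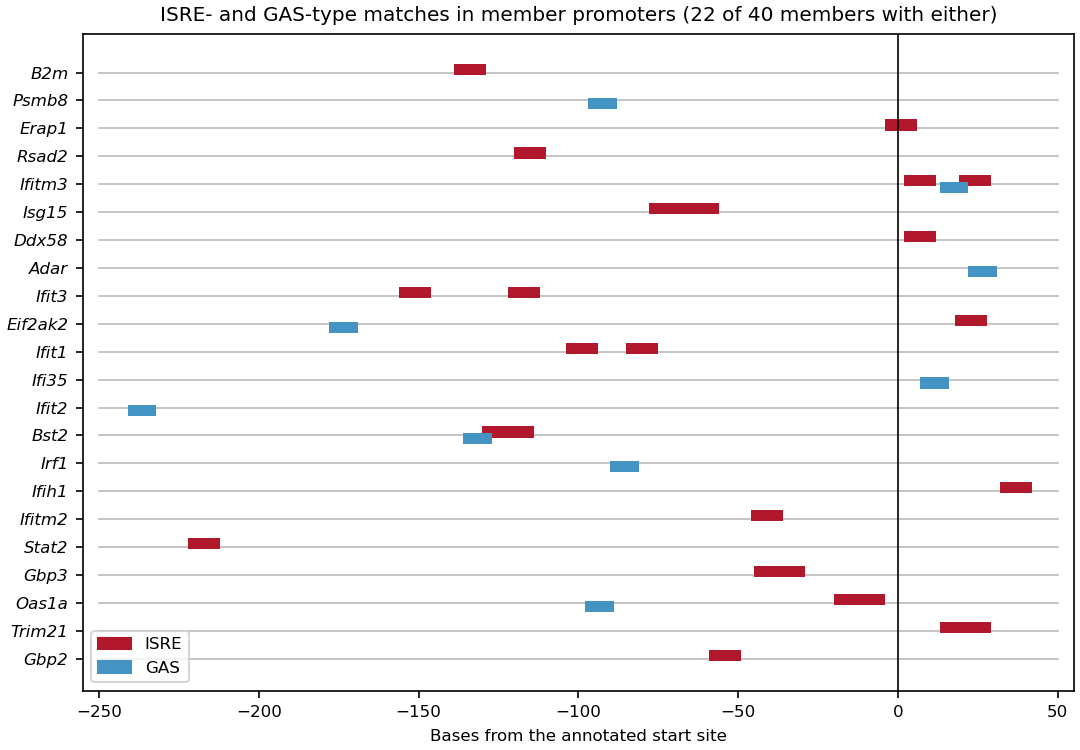
Positions of ISRE matches (red) and GAS matches (blue) in the promoter windows of the 22 of 40 members that had either, in bases from the annotated start site at 0. Red bars lie before the start in most members, and after it in *Ifitm3*, *Ddx58*, *Ifih1*, *Eif2ak2* and *Trim21*.

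Genes of the ISG15 conjugation system and the ADP-ribosylation enzymes showed no common direction. *Isg15*, the ubiquitin-like modifier, had 38.9, 18.6 and 106 CPM in the HPC and 50.4, 34 and 83.1 CPM in the LPC libraries, lower in HPC in pairs 1 and 2 and higher in pair 3. Transcripts of *Isg15* share a stretch of 482 bases with AC151275.1, so its count is uncertain. *Dtx3l*, a ubiquitin ligase, had 28.3, 52.4 and 30.4 CPM and 23.6, 41.7 and 25 CPM, a small excess in every pair. Their log2 fold changes were -0.03 ± 0.66 and 0.29 ± 0.48 (edgeR, adjusted p of 1.00 each), and 5 of the 8 members of the class were above 0. *Trim25*, a ubiquitin ligase that acts on RIG-I, averaged 21.6 CPM, *Herc6*, the ligase for ISG15 in mice, 11.1 CPM, and *Usp18*, the protease that removes ISG15, 9.87 CPM. *Herc6* was nearly constant in LPC, at 12.2, 12 and 12.6 CPM, while HPC had 21.3, 0 and 8.30 CPM. *Parp14*, *Parp9* and *Trim21*, an antibody receptor in the cytosol, averaged 7.16, 3.73 and 2.50 CPM. *Dtx3l* and its binding partner *Parp9* have exons that overlap on opposite strands, so their reads may have been mixed, and *Dtx3l* transcripts share stretches with those of 52 other genes, which makes its count uncertain.

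Of the other interferon-induced members, the 2 most abundant varied strongly between pairs. *Xaf1*, an antagonist of apoptosis inhibitors, had 171, 28.5 and 36.2 CPM in the HPC and 150, 54.9 and 27.3 CPM in the LPC libraries, far higher in both libraries of pair 1. *Lgals3bp*, a secreted galectin-binding protein, had 43.8, 7.57 and 95.5 CPM and 31.4, 23.2 and 64.8 CPM, highest in both libraries of pair 3. The log2 fold changes were 0.03 ± 0.83 and 0.31 ± 0.81 (edgeR, adjusted p of 1.00 each). In pairs 1 and 3 both were higher in HPC, by 0.19 and 0.40 for *Xaf1* and by 0.47 and 0.56 for *Lgals3bp* in log2. In pair 2 both were lower in HPC, by -0.94 and -1.57. *Rtp4*, a receptor-transporting protein, averaged 18.7 CPM, *Ifi35* 14.8 CPM and *Sp100*, a nuclear body protein, 1.62 CPM. Transcripts of *Xaf1* share repeats with those of 31 other genes, and its count is uncertain.

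With pair 2 left out and the pair as a block, *Ifit3* and *Rsad2* were higher in HPC. In this fit 2 of 44 members were called higher, against 0.932% of 11906 genes, and 0 lower, against 0.37% (1.3% in either direction). The log2 fold change was 1.17 ± 0.25 for *Ifit3* (edgeR, adjusted p = 0.0166) and 0.66 ± 0.14 for *Rsad2* (edgeR, adjusted p = 0.0138), with n = 2 pairs, so that leaving out a further library leaves no residual degrees of freedom. In both pairs each was higher in HPC, by 1.29 and 1.07 for *Ifit3* and by 0.74 and 0.60 for *Rsad2* on the log2 scale. Neither call was made with all 6 libraries, with or without the block. Without pair 2 but also without the block, 0 genes and 0 members were called in edgeR (107 genes and 0 members at an unadjusted p under 0.05), with values of 1.11 for *Ifit3* and 0.63 for *Rsad2*, so the calls rested on both the block and the removal of pair 2. A further 7 members, *H2-D1*, *Tapbp*, *Stat2*, *Irf9*, *Adar*, *Ifit1* and *Lgals3bp*, had an unadjusted p under 0.05 and adjusted p of 0.160 to 0.401 in edgeR, all with positive values. With *Ifit3* and *Rsad2* that makes 9 of 44 members under the unadjusted level, where 1446 of all 11906 genes were. Of the 10 antigen presentation genes 7 were above 0, with a median of 0.11, and of the 34 interferon-induced genes 28, with a median of 0.16, where all genes had a median of 0.00. Among pathway genes outside the set, 0 of 34 tested were called. The closest was *Cd274*, the checkpoint ligand PD-L1, at 15.8, 36.7 and 15.5 CPM in HPC and 7.77, 22.6 and 3.67 CPM in LPC, with a log2 fold change of 1.53 (edgeR, adjusted p = 0.0531). Of the 34, 4 had an unadjusted p under 0.05 in edgeR. Apart from *Cd274* these were lower in HPC: *Ifngr1* at -0.85, *H2-Q4* at -0.83 and *Pdia3* at -0.32 (edgeR, adjusted p of 0.317 to 0.335).

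The receptors and kinases of the pathway were present. *Ifnar1* and *Ifnar2*, the chains of the type I interferon receptor, ranged from 0 to 13.7 CPM and from 27.9 to 46.3 CPM. *Ifngr1* and *Ifngr2*, those of the interferon gamma receptor, ranged from 0 to 14.6 CPM and from 4.57 to 32.9 CPM. The values of 0 were both in the HPC library of pair 2. Of the 39 pathway genes with a row, 0 of 34 tested passed between the populations over all 6 libraries in edgeR, DESeq2 or limma-voom, and 0 had an unadjusted p under 0.05 in edgeR. Chaperones that also fold other proteins were more abundant than any member in every library, *Calr* (calreticulin) reaching 1341 to 4753 CPM and *Canx* (calnexin) 846 to 1865 CPM. Of the 34 tested, 3 had all LPC values above the HPC ones and 0 the reverse, against 375 and 275 of 11324 genes. These were *Ifngr1*, *Calr* and *Canx*. In pairs 1, 2 and 3 *Ifngr1* had 9.27, 0 and 6.90 CPM in HPC and 14.2, 14.6 and 14.4 CPM in LPC.

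A number of class I and interferon-induced genes were higher in pair 3 than in pair 1. Pair 3 was compared with pair 1 in the fit without pair 2, with population as a term, a comparison added after the values were seen. Each pair held 1 HPC and 1 LPC library, so n = 2 libraries per pair. The p-values rest on those libraries alone and do not measure the spread between repeats of a suffix. Here 18 of 44 members were called higher in pair 3, against 11.8% of 11906 genes, and 1, *Xaf1*, lower, against 13.7% (25.5% in either direction). By arm, 6 of 10 antigen presentation and 12 of 34 interferon-induced genes were called higher. The median log2 fold change was 1.31 and 0.86, and -0.01 over all genes. All 3 class I chains were among them, at 1.73 ± 0.21 for *H2-K1*, 1.39 ± 0.15 for *H2-D1* and 0.95 ± 0.14 for *B2m* (edgeR, adjusted p of 1.13e-05, 9.68e-08 and 1.34e-05). *Ifit3* at 2.01 ± 0.26, *Irf9* at 1.60 ± 0.21, *Rsad2* at 1.18 ± 0.14 and *Isg15* at 1.08 ± 0.19 were higher as well (edgeR, adjusted p of 1.30e-06, 2.89e-06, 3.59e-07 and 0.000203). *Psmb8* was higher at 3.09 ± 1.09 (edgeR, adjusted p = 0.0470), on 7 and 0 counts in pair 1. *Xaf1* was lower, at -2.35 ± 0.17 (edgeR, adjusted p = 8.10e-11). Of 149 calls that this fit made on simulated counts, 16 were false.

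Members called between the pairs had the same direction in each population. The ratios come from the same libraries as the calls, so they are no separate check. *H2-K1* was 2.33 times its pair 1 level in the HPC and 4.79 times in the LPC library of pair 3. For *Ifit3* the ratios were 3.72 and 4.46, for *Irf9* 3.48 and 2.62, for *Rtp4* 3.87 and 3.37, and for *Xaf1* 0.212 and 0.182. Among members not called, some differed in direction, such as *Dhx58* at 2.52 and 0.699 and *Samd9l* at 2.03 and 0.983. With an ISRE match, 7 of 17 members tested were called higher, and without one 9 of 21 were, with medians of 0.89 and 1.09. In the fit of all 6 libraries 0 members and 0 genes were called for this comparison in edgeR, with 8 members and 948 genes at an unadjusted p under 0.05, while the members' median remained 0.95. DESeq2-type size factors gave 20 members and limma-voom 18. In the pathway list *Tlr3* and *Psme1* were higher in pair 3 and *Jak1*, *Pdia3*, *Tapbpl*, *H2-T23* and *Psmb7* lower, *H2-T23*, a nonclassical class I chain, by -2.41 (edgeR, adjusted p = 6.22e-09). Among melanocyte markers, *Mitf*, *Dct*, *Pmel* and *Sox10* were called higher in pair 3. *Mlana*, *Tyrp1* and *Tyr* were not called, with log2 fold changes of 0.31, -0.02 and -2.63. *Tyr* had 81.7 and 83.8 CPM (HPC and LPC) in pair 1 and 32.4 and 3.78 CPM in pair 3. The leukocyte marker *Fcer1g* was called higher, with 1 and 0 counts in pair 1 and 32 and 46 in pair 3. The summed leukocyte level was 8.30 and 4.13 CPM in pair 1 and 7.13 and 6.82 CPM in pair 3. The part of these in the result was not tested, and whatever the suffix marks cannot be told apart from the pair.

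**Figure D5:**
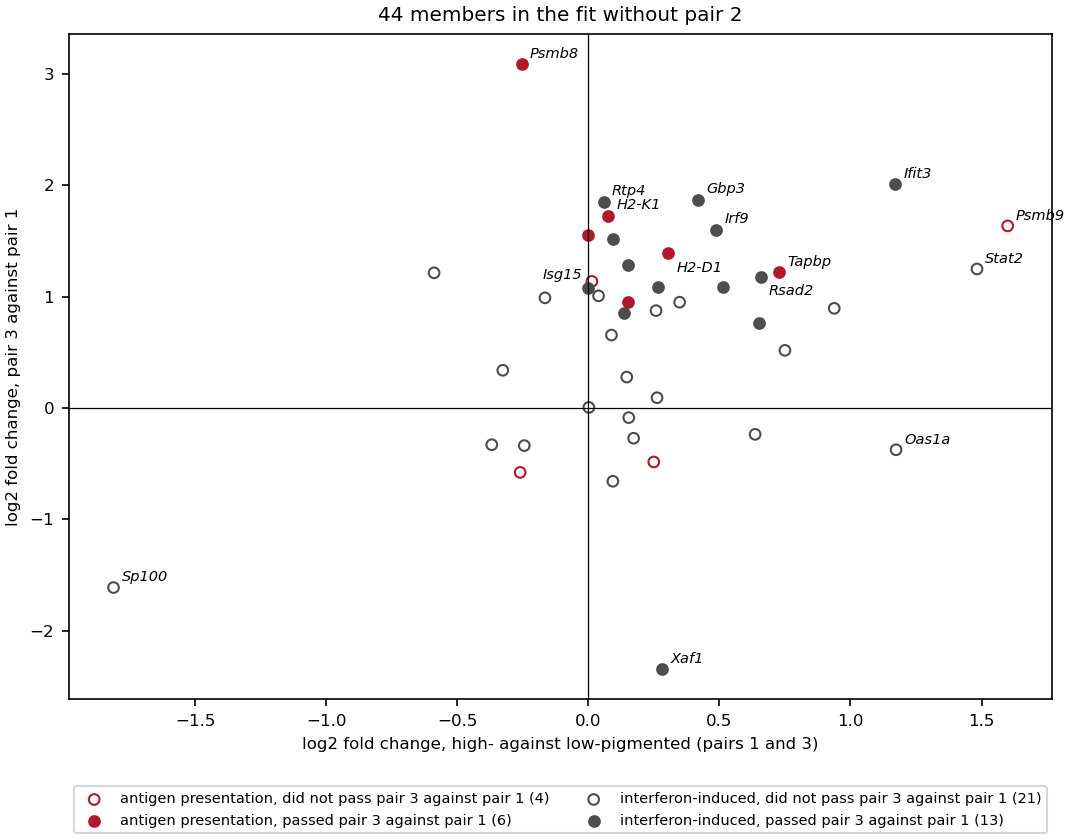
Log2 fold change of the 44 members in the fit without pair 2, for HPC against LPC (x axis) and for pair 3 against pair 1 (y axis); filled points passed an adjusted p of 0.05 between the pairs, red for antigen presentation and grey for interferon-induced members. The 18 filled points above 0 on the y axis spread over a narrower range on the x axis, and *Xaf1* is the filled point below 0.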

How the data were processed

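The authors deposited raw counts per gene and library, made with HTSeq per the table's name and tally rows. The submitters' processing notes name the aligner STAR and the build GRCm38. Libraries were of the QuantSeq forward 3′ kit from sorted-cell RNA, per the labels' protocols. The annotation, counting mode, use of strand and versions are not given in the sources used here. No molecular identifiers are mentioned, so intervals cover counting error only. Tally rows entered neither library sizes nor tests: reads in no annotated gene were 12.4% to 29.5% and reads in more than 1 gene 0.487% to 2.51% of tallied reads.

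The members and gene lists were chosen with earlier results of these data known. Gene counts were tested with edgeR 4.0.16 in R 4.3.3 (glmQLFit and glmQLFTest, robust) after filterByExpr with a minimum count of 10 and TMM scaling, with population as the only term, and Benjamini-Hochberg adjustment over all genes tested. Standard errors come from the test statistic. Within-pair differences used a prior count of 2. DESeq2 1.42.0, limma-voom (limma 3.58.1), other size factors, no filter, the pair as a block and left-out libraries were alternatives. The labels do not say what the title suffix marks. Within each suffix the HPC and LPC libraries departed from their group means in the same direction (correlations across 11324 genes of 0.466, 0.316 and 0.422, each above a minimum of 0.1), so the suffix was taken to pair them. Correlations between libraries of different suffixes were not computed, and pair 2 stood apart in both populations. The check therefore cannot single out this matching from others. Nothing says that replicates came from separate cultures, so p-values measure the spread between these libraries, which may be technical.

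Values in every library are given for the 2 most abundant members of each functional class, for those without overlap between the populations at a mean of 5 CPM or more, and for those called in any of the 3 edgeR fits. *H2-K1* was added. Outside this rule, values in every library are also given for *Bst2*, *Cmpk2* and *Herc6*, and counts for *Psmb9*, *Oasl2* and *Ifi44*. The same holds for the pathway genes *Cd274* and *Ifngr1*. Gene positions and promoter windows are from RefSeq (GRCm38.p6). Shared sequence was sought in GENCODE transcripts with BLAST 2.17.0, and exon overlaps in the same annotation. Sharing also makes uncertain the counts of *Stat2* (34 other genes), *Herc6* (19), *Sp100* (13), *Irf9* (6) and *Ifitm2* (3). The same holds for *Oas1a*, *Samd9l*, *Trim21*, *Parp14* and *Rtp4* (1 each). Exons of *Ifitm2*, *Herc6*, *Parp14*, *Sp100* and *Rtp4* overlap those of another gene on the same strand. The fits were run on simulated counts with known changes, 2-, 4- and 8-fold among them. Over all 6 libraries 0% of each were recovered, and with the block 4%, 28% and 40%. Without pair 2 the block fit recovered 62%, 90% and 96%, with 7 of 148 calls false. The comparison of pair 3 with pair 1 recovered 46%, 88% and 96%. Figures were drawn with matplotlib 3.10.9.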

Additional observations from a re-analysis of the deposited data

Results flagged for a closer look

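A signal outside the gene counts was present in the tally rows of the table. Reads that fell in no annotated gene made up from 12.37% of tallied reads, in the low-pigmented library of pair 3, to 29.51%, in the high-pigmented library of pair 2. Reads that fell in more than 1 gene made up from 0.4873%, in the high-pigmented library of pair 2, to 2.511%, in the low-pigmented library of pair 3. Such reads are in no member's count.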

How the results depend on the processing

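With the replicate block and pair 2 left out, 155 genes and 2 members were called, against 0 and 0 over all 6 libraries, and 0 and 0 without pair 2 and without the block; with the replicate block and all 6 libraries 0 genes and 0 members were called. Leaving out 1 library at a time gave 0 calls throughout, a median log2 fold change of -0.78 to 0.13 for antigen presentation members (0.21 in limma-voom with all libraries), and of -0.10 to 0.69 for interferon-induced members. Pair 3 against pair 1, an alternative chosen after seeing the data, gave 0 genes and 0 members in the fit of all 6 libraries. Without pair 2, leaving out a library left no residual degrees of freedom. Only ratios per population are given, and they come from the same libraries as the calls.

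Of 266 alternative values for 19 named members, 222 kept direction and side of the threshold. Every alternative but the block without pair 2 called 0 genes, so the side could change only there. Elsewhere the count describes direction alone, and most alternatives share libraries. The 222 include the values of *Tap2*, which was -0.0016 without pair 2 with the block, -0.13 without it, and -1.90 to -0.42 with 1 library left out. Without pair 2, with and then without the block, the direction turned for *H2-D1* (0.30, 0.20), *B2m* (0.15, 0.22), *Tapbp* (0.73, 0.70), *Psmb10* (-0.26, -0.15), *Irf1* (-0.24, -0.29) and *Isg15* (1.64e-05, 0.11), and with the block for *H2-K1* (0.075). The block over all libraries turned *Xaf1* (-0.086) and *Lgals3bp* (-0.069), and limma-voom *Tapbp* (0.23) and *Psmb8* (0.30). Ranges with 1 library left out crossed 0 for 13 members: *B2m* -0.65 to 0.22, *Dtx3l* -0.028 to 0.60, *H2-D1* -0.68 to 0.44, *H2-K1* -1.25 to 0.58, *Ifitm3* -0.085 to 0.95, *Irf9* -0.78 to 1.18, *Isg15* -0.96 to 0.38, *Lgals3bp* -0.62 to 0.87, *Psmb10* -0.74 to 0.39, *Psmb8* -2.09 to 0.088, *Rsad2* -0.12 to 1.05, *Tapbp* -0.95 to 0.40 and *Xaf1* -1.26 to 0.96. The causes were not tested. Depth limits the members with few counts, such as *Nlrc5* and *Oasl2*.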
